A study of Mus musculus with 16 samples.

Results

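What p53 siRNA changed in cells that already carried PRMT1 siRNA was measured by RNA sequencing in MEC1, an established line of mouse epicardial cells, without TGF-beta. The compared groups were 2 libraries of cells given PRMT1 siRNA together with p53 siRNA (labelled PRMT1-p53_si, "both siRNAs" from here on) and 2 libraries of cells given PRMT1 siRNA (PRMT1_si). These are 4 of the 16 libraries of the study, chosen by their labels and column names, and all genes were examined. PRMT1 siRNA is shared by both groups, and by their labels they differ in the p53 siRNA. Differences between libraries that have another source cannot be told apart from it. A further 2 pairs of groups served for comparison, and they share no library with the first pair: p53 siRNA (p53_si) over control siRNA (Cont_si) without TGF-beta, and both siRNAs (PRMT1-p53_si_TGFB) over PRMT1 siRNA (PRMT1_si_TGFB) with TGF-beta. MEC1 is 1 line, and siRNA sequences, siRNA amounts, whether a control siRNA made up the dose in the PRMT1 siRNA cells, and the dose and time of TGF-beta are not given in the sources used here. The series calls the 2 libraries of a group biological replicates without saying that they came from separate cultures, so p-values measure the spread between these libraries, which may be technical.

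The transcription factor p53, encoded by Trp53 in the mouse, binds a sequence made of a pair of like half-sites and switches on genes that stop the cell cycle, start cell death, repair DNA or feed back on p53 itself. Mdm2, a ubiquitin ligase, and Mdm4, its partner, hold p53 in check, and Mdm2 is itself switched on by p53. PRMT1 is the main enzyme that places asymmetric dimethyl marks on arginines of histones and RNA-binding proteins. The study's title places PRMT1, Mdm4 and p53 in 1 pathway in epicardial cells, the mesothelial cells that cover the heart.

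Library totals over the 16 libraries ran between 19617874 and 30759317 counts. They were 29070046 and 22336739 with both siRNAs, against 23747460 and 22970799 with PRMT1 siRNA. The libraries of another group, p53 siRNA with TGF-beta, differed by a root mean square log2 difference of 0.805, against 0.341 to 0.426 within the other groups. That value cannot say which of them is unlike the rest. Replicate 2 had the fewest genes above 0 of the 16 libraries (19133, against 20204 in replicate 1). All groups share 1 estimate of the spread. The ribosomal RNA gene Rn18s-rs5 held 0.557% and 4.35% of counts with both siRNAs, against 0.727% and 1.67% with PRMT1 siRNA. Levels below are CPM, counts scaled to a common library total with TMM factors. In a bulk sample fewer cells of a type and less RNA per cell cannot be told apart.

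Transcript length moved with the comparison, so results are given from a fit with the length trend and a fit without it. The log2 change, both siRNAs over PRMT1 siRNA, correlated with transcript length at Spearman's rho = -0.394 over 14959 genes, a description across genes that share the same 4 libraries. The median change was 0.20 in the tenth of genes with the shortest transcripts (median 660 bases) and -0.24 in the tenth with the longest (median 6881 bases). The 4 pairs of libraries gave rho between -0.431 and -0.256, and the trend also ran within a group: replicate 1 against replicate 2 gave -0.374 with both siRNAs and 0.124 with PRMT1 siRNA. Removing each library's smooth trend with length (offsets, with replicate 2 of p53 siRNA with TGF-beta left out, 15 libraries) brought rho to -0.008. That fit is called the length-adjusted fit below, and the fit to all 16 libraries without offsets the 16-library fit. The 2 fits differ both in the offsets and in the library left out.

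**Figure D1:**
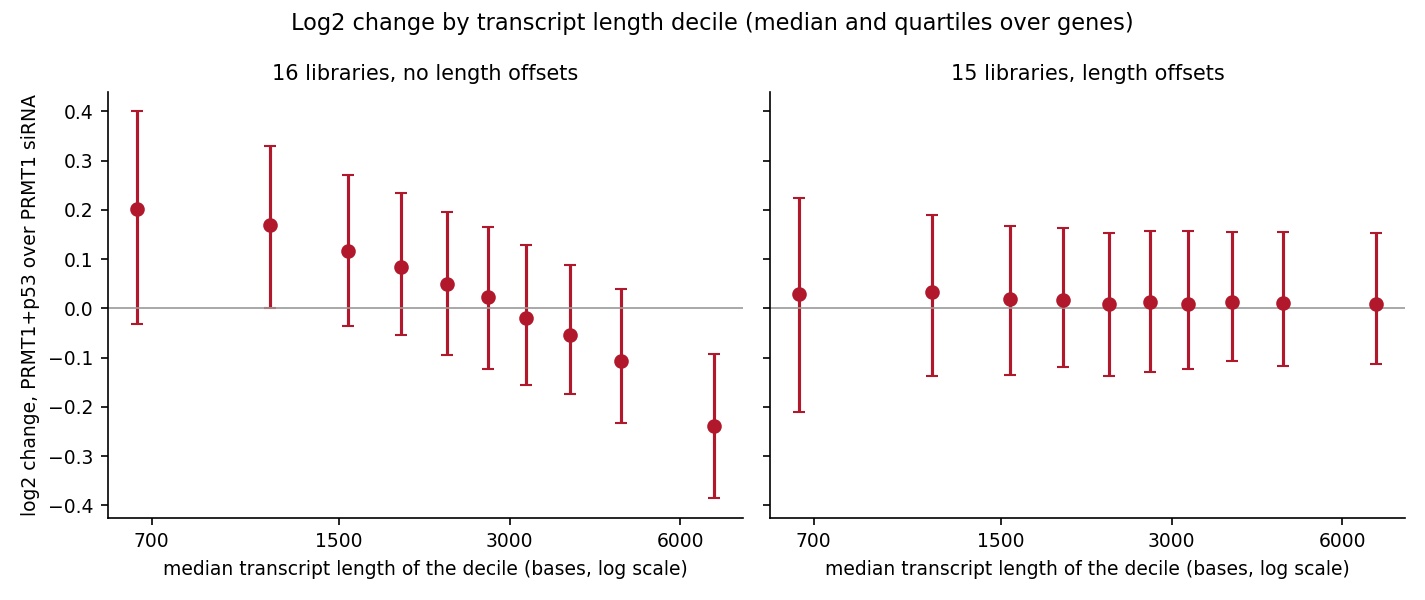
Log2 change (both siRNAs over PRMT1 siRNA, no TGF-beta) against transcript length in bases (log axis), in 10 groups of genes by length; points are medians and bars span the quartiles over genes. In the 16-library fit on the left the medians run between 0.20 for the shortest and -0.24 for the longest transcripts, and in the length-adjusted fit on the right they lie between 0.01 and 0.03.

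In the 16-library fit edgeR's quasi-likelihood test called 88 genes higher (0.568% of the 15494 tested) and 46 lower (0.297%) with both siRNAs than with PRMT1 siRNA at an adjusted p under 0.05. The length-adjusted fit called 1748 higher (10.9% of 16103) and 1291 lower (8.02%), and 133 of the 134 genes of the 16-library fit were called there in the same direction, the exception being Prep, a prolyl endopeptidase (-0.33 ± 0.07, and 0.08 ± 0.09 length-adjusted). Either way the calls took in 0.865% of tested genes in the first fit and 18.9% in the second. The higher count goes mostly with the library left out: 15 libraries without offsets gave 1899 higher and 1583 lower, and 16 libraries with offsets 415 and 185. Most called changes were small: 15 genes rose and 3 fell by 2-fold or more in the 16-library fit. By that much the length-adjusted fit called 66 genes higher and 89 lower. The count of the 16-library fit rests on every library, since leaving out replicate 1 or 2 of PRMT1 siRNA left 2 or 5 genes higher and leaving out replicate 1 or 2 of both siRNAs left 4 or 7, with 2 lower each time. Cdkn1a, Angptl7 and Col8a2 were among the genes called in all 4 of these fits. In the length-adjusted fit, leaving out a library in the same order gave 753, 1037, 845 and 1606 genes higher and 401, 710, 470 and 1188 lower, and 130 of the 134 genes were called the same way in all 4. The 134 genes were chosen with libraries that these fits share, so their agreement is not an independent check. Below, "rose" and "fell" are used for genes called in the 16-library fit, and calls of the length-adjusted fit are named as such. Log2 changes are given ± SE with n = 2 libraries per group. That SE was derived from the F value of the test, so it uses the spread shared by all groups.

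The targeted gene comes first. Trp53 (chromosome 11, 69580359 to 69591873, GRCm38) had 88.05 and 90.7 CPM with both siRNAs, against 142 and 141.2 CPM with PRMT1 siRNA. The groups did not overlap, as was the case for 62.4% of all tested genes, and Trp53 with both siRNAs stood at 63.1% of its level with PRMT1 siRNA (-0.66 ± 0.09, adjusted p = 0.0136). The fall was -0.74 ± 0.05 in the length-adjusted fit. It was smaller than that on control siRNA, where Trp53 had 55.4 and 54.2 CPM with p53 siRNA, against 144.5 and 128.3 CPM with control siRNA (-1.30 ± 0.05, length-adjusted). The difference between these falls was 0.56 ± 0.07 (adjusted p = 0.000511) in the length-adjusted fit. In the 16-library fit it was 0.65 ± 0.13 and was not called (adjusted p = 0.221).

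Prmt1, the target of the siRNA that both groups carried, had 74.5 and 77.1 CPM with PRMT1 siRNA, against 172.6 and 142.7 CPM with control siRNA. These groups did not overlap, and their difference was not tested here. With both siRNAs Prmt1 had 78.3 and 67.8 CPM, against 74.5 and 77.1 CPM with PRMT1 siRNA. The groups overlapped (-0.05 ± 0.16, adjusted p = 0.879), while the length-adjusted fit put it lower with both siRNAs (-0.20 ± 0.06, adjusted p = 0.0308). Without replicate 2 of both siRNAs the 16-library value was 0.05. Of 8 tested members of the arginine methyltransferase list, none was called in the 16-library fit. Prmt1 and Prmt5 (-0.20 ± 0.05), a symmetric arginine methyltransferase, were called lower in the length-adjusted fit, as were 8.02% of all genes.

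Mdm2 fell and Mdm4 did not pass either test. Mdm2 (chromosome 10, 117688875 to 117710758) had 101.1 and 108.3 CPM with both siRNAs, against 160.9 and 163.5 CPM with PRMT1 siRNA. Every library with both siRNAs lay below every library with PRMT1 siRNA (-0.63 ± 0.09, adjusted p = 0.0135). Groups without overlap were seen for 62.4% of all tested genes. Mdm4 had 112.3 and 128.2 CPM with both siRNAs, against 127.1 and 132.4 CPM with PRMT1 siRNA, and the groups overlapped (-0.11 ± 0.22, adjusted p = 0.811). Its length-adjusted change was -0.03 ± 0.06, and its sign turned without replicate 2 of PRMT1 siRNA (0.002) or replicate 1 of both siRNAs (0.03). Of the 11 tested p53 family members and regulators, Trp53 and Mdm2 were the 2 that changed in the 16-library fit. The length-adjusted fit also put Trp53bp1, a DNA damage adaptor that binds p53 (0.25 ± 0.06), and Rfwd2, the ubiquitin ligase COP1 (0.19 ± 0.06), higher. It called 10.9% of all genes higher. Without offsets Trp53bp1 gave -0.10 ± 0.16. The length-adjusted calls of Trp53bp1, Rfwd2, Prmt1 and Prmt5 were each lost without at least 1 of the 4 libraries. Trp53bp1 lost its call without replicate 1 of PRMT1 siRNA (0.23), and Rfwd2 and Prmt5 without replicate 1 of either group. Prmt1 lost its call without either PRMT1 siRNA library or replicate 2 of both siRNAs. The family members Trp63 and Trp73 were too low to test.

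**Figure D2:**
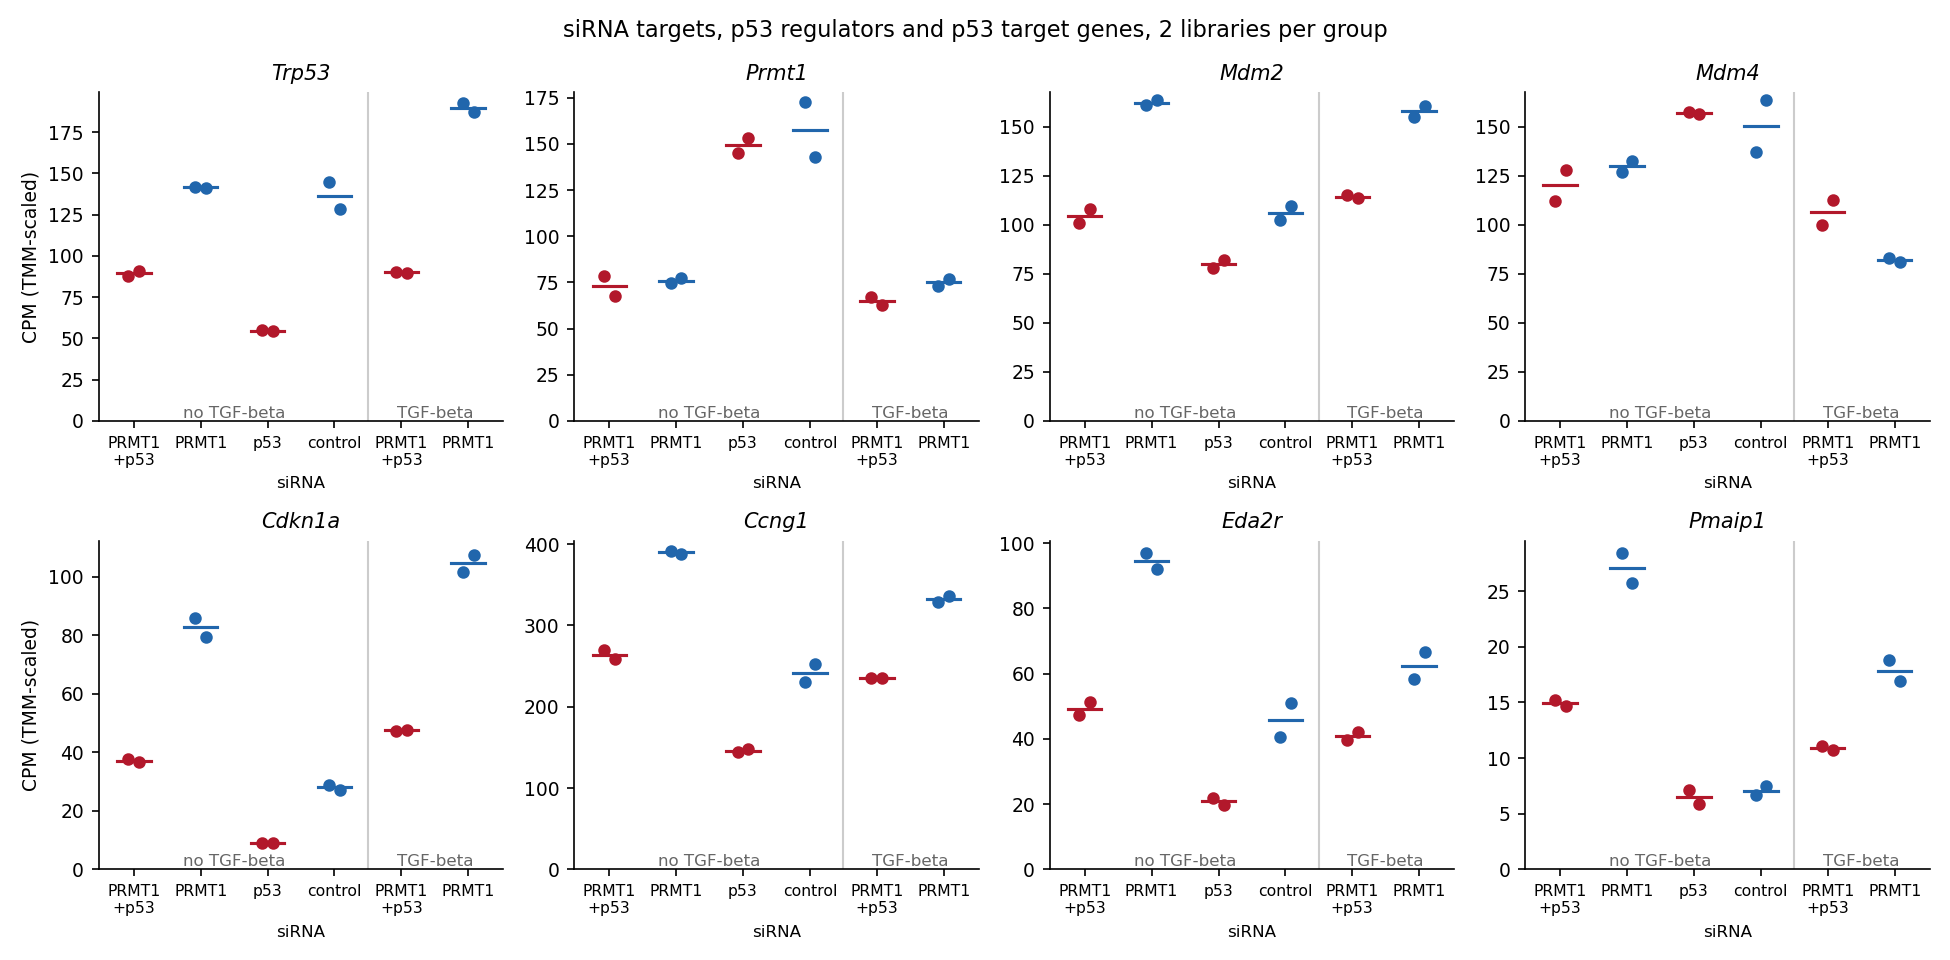
CPM of the siRNA targets, of the p53 regulators Mdm2 and Mdm4 and of 4 p53 target genes, 1 point per library and a line at the group mean; groups are named by siRNA, with the TGF-beta groups to the right of the grey line. Trp53, Mdm2, Cdkn1a, Ccng1, Eda2r and Pmaip1 lie lower with both siRNAs than with PRMT1 siRNA in every library, and Prmt1 and Mdm4 without TGF-beta overlap.

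Target genes of p53 that stop the cell cycle or feed back on p53 were mostly lower with both siRNAs. Of 20 tested members, 5 fell and none rose in the 16-library fit. The length-adjusted fit called 10 lower and 1 higher, against 8.02% and 10.9% of all genes. Its median over the list was -0.25, against 0.009 over all tested genes. Cdkn1a (chromosome 17, 29090976 to 29100727), which encodes the cyclin-dependent kinase inhibitor p21, had 37.6 and 36.6 CPM with both siRNAs, against 86.1 and 79.5 CPM with PRMT1 siRNA. The groups were far apart, with both siRNAs at 44.8% of PRMT1 siRNA (-1.16 ± 0.07, adjusted p = 4.01e-05). Ccng1, cyclin G1, had 269.9 and 258.5 CPM with both siRNAs, against 392.1 and 387.4 CPM with PRMT1 siRNA (-0.56 ± 0.08, adjusted p = 0.0137). Its groups did not overlap either, as in 62.4% of all tested genes. Zmat3, an RNA-binding zinc finger protein, fell by 0.61 ± 0.11 (log2, adjusted p = 0.0328), and its change was -0.33 ± 0.06 in the length-adjusted fit. Plk2, a polo-like kinase, fell by 0.42 ± 0.08 (log2, adjusted p = 0.0352).

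Without each library in turn 8 to 10 members were called lower there. The others called lower in the length-adjusted fit were Gtse1 (-0.48 ± 0.08), which binds p53 in G2, Phlda3 (-0.41 ± 0.06), an inhibitor of Akt, Btg2 (-0.26 ± 0.06), an antiproliferative regulator of mRNA decay, Psrc1 (-0.24 ± 0.04), a spindle protein, and Sesn2 (-0.22 ± 0.06), a stress-induced inhibitor of mTORC1. Sesn1, its relative, went the other way and was called higher there, at 33.6 and 33.2 CPM with both siRNAs, against 25.6 and 27.0 CPM with PRMT1 siRNA (0.38 ± 0.08, adjusted p = 0.00323). Of these, Btg2 and Sesn2 were not called once 1 library was left out (replicate 1 of both siRNAs for Btg2, and either PRMT1 siRNA library or replicate 1 of both siRNAs for Sesn2).

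The stretches of promoter below are shown because they hold a p53 half-site in 5 genes that fell, within the 250 bases before the RefSeq start (GRCm38.p6). They run 5′ to 3′ on the gene's strand, and capitals mark each match, read on both strands. They lie at chr17:29090881-29090962 for Cdkn1a (plus strand), chr10:117710910-117710969 for Mdm2 (minus), chr11:40755437-40755496 for Ccng1 (minus), chr7:78895912-78895971 for Aen (plus) and chr5:8797931-8797990 for Abcb1b (plus).
Cdkn1a: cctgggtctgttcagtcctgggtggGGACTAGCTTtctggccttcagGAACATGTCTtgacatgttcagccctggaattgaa
Mdm2: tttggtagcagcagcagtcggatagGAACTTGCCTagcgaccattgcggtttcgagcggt
Ccng1: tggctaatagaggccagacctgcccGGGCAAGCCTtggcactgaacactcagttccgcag
Aen: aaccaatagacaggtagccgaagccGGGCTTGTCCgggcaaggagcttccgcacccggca
Abcb1b: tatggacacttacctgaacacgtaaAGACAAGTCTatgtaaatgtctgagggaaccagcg
A half-site here is an exact match to RRRCWWGYYY, with R for A or G, W for A or T and Y for C or T. By that rule Cdkn1a was the member of these lists with a pair of half-sites at most 13 bases apart. Such a pair is held by 18 of 27025 genes with a promoter entry (0.0666%). In Cdkn1a the bases tgacatgttc, directly after the last match, miss the pattern by their leading t and are left unmarked. A single half-site is common: 2216 genes (8.2%) hold one in that window. It was present in 6 of 16 matched genes of the arrest and feedback list, 4 of 12 of the cell death list and 2 of 17 of the repair and metabolism list. A match is a run of letters, not a measured binding site. The genes shown were chosen for a match after their values were seen, and Abcb1b is on none of the p53 lists. The share with a match among all genes that fell was not counted.

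Target genes of p53 that act in cell death were lower as well. Of 17 tested members, 3 fell and none rose in the 16-library fit. The length-adjusted fit called 10 lower and none higher (median -0.23), against 8.02% and 10.9% of all genes. Pmaip1, which encodes the BH3-only protein NOXA, had 15.2 and 14.7 CPM with both siRNAs, against 28.4 and 25.8 CPM with PRMT1 siRNA (-0.85 ± 0.12, adjusted p = 0.0135). Eda2r (chromosome X, 97333840 to 97377216), a receptor of the tumour necrosis factor receptor family, had 47.3 and 51.3 CPM with both siRNAs, against 96.9 and 92.2 CPM with PRMT1 siRNA (-0.94 ± 0.18, adjusted p = 0.041). Aen, a nuclease that acts in apoptosis, had 52.6 and 51.3 CPM with both siRNAs, against 78.3 and 75.2 CPM with PRMT1 siRNA (-0.56 ± 0.08, adjusted p = 0.0137). In all 3 the groups did not overlap, as in 62.4% of all tested genes. The length-adjusted fit added Perp (-0.45 ± 0.10), a membrane protein of desmosomes, the BH3-only gene Bbc3 (-0.37 ± 0.10), the death receptor gene Tnfrsf10b (-0.34 ± 0.07), Trp53inp1 (-0.30 ± 0.07), the pore-forming Bax (-0.23 ± 0.05), Apaf1 of the apoptosome (-0.17 ± 0.06) and Ei24 (-0.14 ± 0.04). Bax had 68.1 and 58.7 CPM with both siRNAs, against 66.5 and 66.7 CPM with PRMT1 siRNA, so its groups overlapped before the adjustment for length. The count of 10 was 5 and 6 without replicate 1 and 2 of PRMT1 siRNA, and 8 and 7 without replicate 1 and 2 of both siRNAs. Eda2r, Pmaip1, Aen and Tnfrsf10b were called in all 4 of these fits.

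Target genes of p53 in DNA repair and metabolism moved both ways. None of 19 tested members was called in the 16-library fit. In the length-adjusted fit 6 of 20 were called lower and 3 higher (median -0.06), against 8.02% and 10.9% of all genes. Those called lower were the polymerase gene Polk (-0.61 ± 0.08), the ribonucleotide reductase subunit gene Rrm2b (-0.48 ± 0.09), the adenylate kinase gene Ak1 (-0.33 ± 0.06), Rps27l (-0.26 ± 0.06), a ribosomal protein gene, the epoxide hydrolase gene Ephx1 (-0.24 ± 0.05) and Tigar (-0.22 ± 0.07), which limits glycolysis. Fdxr, ferredoxin reductase of mitochondria, was among those called higher, with 40.4 and 40.7 CPM with both siRNAs, against 27.9 and 27.0 CPM with PRMT1 siRNA (0.49 ± 0.07). The peptide transporter gene Tap1 (0.48 ± 0.07) and Sat1 (0.22 ± 0.05), an enzyme of polyamine breakdown, were the other 2; Tap1 is also on the antigen presentation list below. Without each library in turn 4 or 5 members were called lower and 2 or 3 higher, and Polk, Rrm2b, Ak1, Fdxr and Tap1 kept their call in every case.

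**Figure D3:**
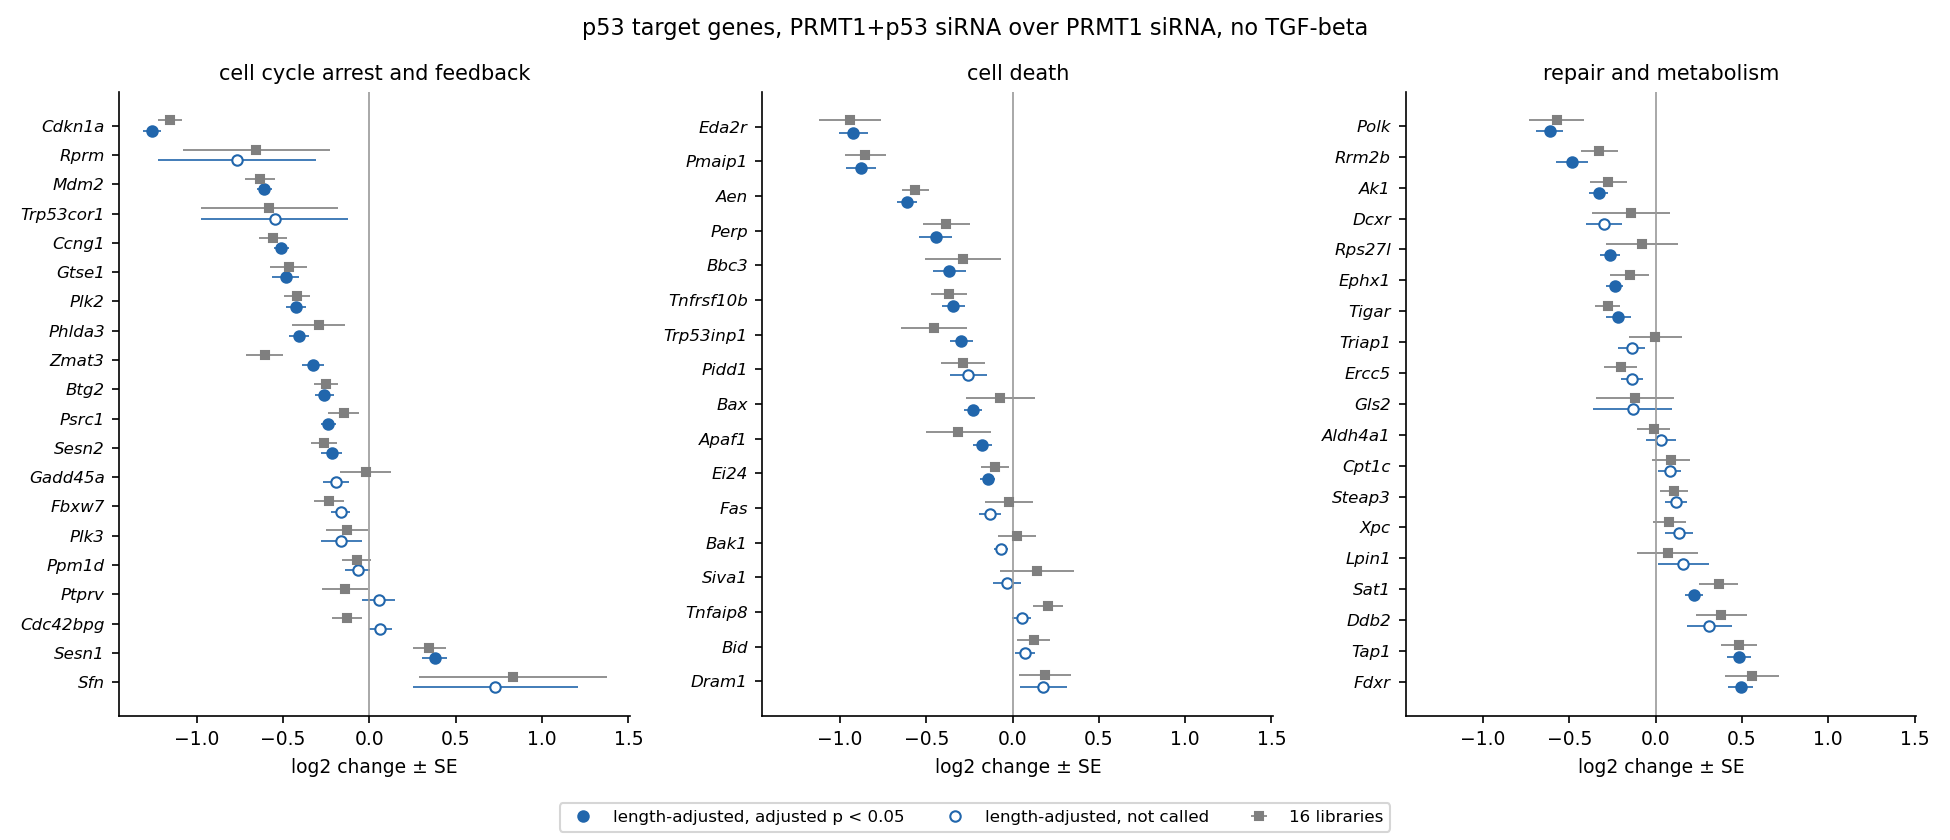
Log2 change ± SE (both siRNAs over PRMT1 siRNA, no TGF-beta) of every tested p53 target gene in 3 lists; grey squares are the 16-library fit and circles the length-adjusted fit, filled where called. In the arrest and cell death lists 10 filled circles each lie left of 0, and the repair and metabolism list has 6 to the left and 3 to the right.

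Outside the p53 lists, among genes at a mean of 5 CPM or more without predicted genes and near copies, the deepest fall was in Cemip (chromosome 7, 83932857 to 84086502), a protein that degrades hyaluronan. It had 52.8 and 67.9 CPM with both siRNAs, against 147.9 and 131.7 CPM with PRMT1 siRNA (-1.21 ± 0.21, adjusted p = 0.0309). Others among the 12 largest falls were Lrp8 (-0.998 ± 0.192), a receptor of reelin and apolipoprotein E, Epha4 (-0.89 ± 0.14), an ephrin receptor, Serpinb9b (-0.86 ± 0.13), a serpin, Abcb1b (-0.83 ± 0.14), a P-glycoprotein drug pump, Ereg (-0.78 ± 0.14), epiregulin, an EGF receptor ligand, and Ddias (-0.66 ± 0.08), an apoptosis suppressor. Their adjusted p-values lay between 0.00575 and 0.0412, and no group overlapped, which the choice of these genes required. Adamts5, an aggrecan-cleaving protease with 128.3 and 129.8 CPM with both siRNAs, against 219.4 and 198.1 CPM with PRMT1 siRNA, fell as well (-0.69 ± 0.13, adjusted p = 0.0361). Its length-adjusted change was -0.29 ± 0.09, and there it was not called without replicate 1 or 2 of PRMT1 siRNA (-0.25 and -0.32) or replicate 2 of both siRNAs (-0.17). Serpinb9b, Abcb1b, Ereg and Cdkn1a overlap a gene on the opposite strand in their exons; the strand setting of the counting is not given, so reads of the partners cannot be told apart.

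A further 7 genes that fell are named after their values were seen, and no list of genes with their roles in ribosome and RNA processing was examined. Rrp12 (-0.57 ± 0.08), Pop1 (-0.51 ± 0.08), Ddx21 (-0.44 ± 0.08), Mybbp1a (-0.41 ± 0.08), Pwp2 (-0.40 ± 0.07), Nol10 (-0.38 ± 0.07) and the pseudouridine synthase gene Pus7 (-0.34 ± 0.07) were called, with adjusted p-values between 0.0137 and 0.0427. Ddx21, a nucleolar RNA helicase, had 179.1 and 183.5 CPM with both siRNAs, against 248.5 and 242.8 CPM with PRMT1 siRNA. Mybbp1a shares exon bases with Spns2 on the opposite strand. Ribosomal protein genes had a median of 0.21 in the 16-library fit and 0.05 in the length-adjusted fit. Of 24, 1 was called higher in the second fit, against 10.9% of all genes, and none in the first.

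Among genes at a mean of 5 CPM or more, without predicted genes and near copies, the largest rise was that of Mgp (chromosome 6, 136872435 to 136875823), matrix Gla protein, an inhibitor of calcification. It had 10.1 and 8.44 CPM with both siRNAs, against 2.30 and 2.60 CPM with PRMT1 siRNA (1.92 ± 0.27, adjusted p = 0.0135). Angptl7 (chromosome 4, 148495183 to 148500460), an angiopoietin-like secreted protein, had 25.9 and 28.4 CPM with both siRNAs, against 7.68 and 9.89 CPM with PRMT1 siRNA (1.63 ± 0.15, adjusted p = 0.00113). Lum, lumican, a small leucine-rich proteoglycan, had 14.3 and 13.3 CPM with both siRNAs, against 6.16 and 5.94 CPM with PRMT1 siRNA (1.19 ± 0.22, adjusted p = 0.0377). In these 3 genes both libraries with both siRNAs lay above both with PRMT1 siRNA, which the choice of genes required.

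Others of the 12 largest rises were Ly6a (1.37 ± 0.23), a GPI-anchored surface protein, Ifi44l (1.33 ± 0.21), an interferon-induced gene, Plac8 (1.17 ± 0.22), Ly6e (1.12 ± 0.19), another GPI-anchored protein and interferon-induced, Plekha4 (0.98 ± 0.16) and Hopx (0.93 ± 0.19), a homeodomain protein that does not bind DNA. Their adjusted p-values lay between 0.0242 and 0.0458. Ly6e (chromosome 15, 74955051 to 74959905), the most abundant of them, had 528.5 and 440.0 CPM with both siRNAs, against 207.0 and 237.0 CPM with PRMT1 siRNA. Hopx shares exons with an antisense gene, and the same limit on strand applies. Megf6 (0.85 ± 0.10) and Igf1 (0.80 ± 0.13), insulin-like growth factor 1, rose too and were named after their values were seen. Igf1 had 54.5 and 61.8 CPM with both siRNAs, against 31.6 and 35.2 CPM with PRMT1 siRNA.

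**Figure D4:**
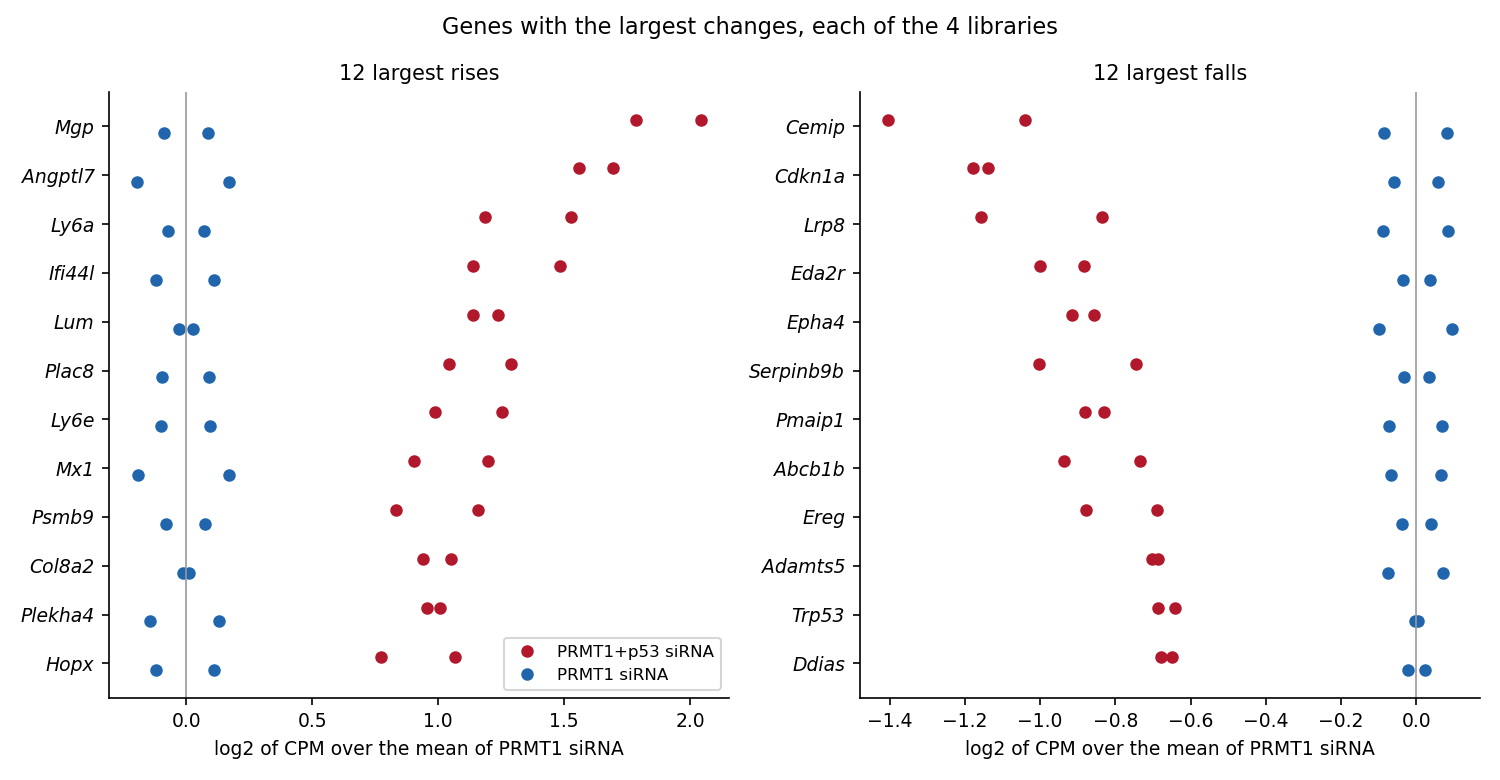
The 12 largest rises and 12 largest falls of the 16-library fit at a mean level of 5 CPM or more, without predicted genes and near copies, as log2 of CPM over the mean of the 2 PRMT1 siRNA libraries, 1 point per library, with both siRNAs drawn above PRMT1 siRNA in each row. The groups do not overlap in any of the 24 genes, which the choice of genes required.

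Interferon-stimulated genes, which cells switch on in the response to virus, were mostly higher with both siRNAs. Of 36 tested members, 3 rose and none fell in the 16-library fit. The length-adjusted fit called 34 higher and 1 lower (median 0.46), against 10.9% and 8.02% of all genes. The 34 became 22 and 32 without replicate 1 and 2 of PRMT1 siRNA, and 27 and 34 without replicate 1 and 2 of both siRNAs. The summed level of the list was 9194 and 8359 CPM with both siRNAs, against 5871 and 6667 CPM with PRMT1 siRNA, so replicate 1 was the higher library of the first group and replicate 2 of the second. Mx1 (chromosome 16, 97447035 to 97462907), an antiviral GTPase, had 49.4 and 40.4 CPM with both siRNAs, against 18.9 and 24.2 CPM with PRMT1 siRNA (1.06 ± 0.13, adjusted p = 0.00782). Irf7, the transcription factor that amplifies the interferon response, had 259.6 and 224.4 CPM with both siRNAs, against 132.2 and 150.2 CPM with PRMT1 siRNA (0.78 ± 0.16, adjusted p = 0.0476). Igtp, an immunity-related GTPase, had 298.5 and 269.0 CPM with both siRNAs, against 158.3 and 191.8 CPM with PRMT1 siRNA (0.70 ± 0.14, adjusted p = 0.0459). The 2 groups did not overlap in any of these, as in 62.4% of all tested genes. Irf7 and Igtp share exon bases with the neighbouring genes Phrf1 and Irgm2.

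Further members called in the length-adjusted fit included the guanylate-binding protein genes Gbp2 (0.57 ± 0.08) and Gbp3 (0.58 ± 0.09) and the oligoadenylate synthetase gene Oas1b (0.53 ± 0.09). Irf9, a subunit of the factor that carries the interferon signal, gave 0.15 ± 0.06 and was the member that passed in neither direction (adjusted p = 0.0836). Ifi27 was the 1 called lower, with 32.7 and 31.8 CPM with both siRNAs, against 43.8 and 38.4 CPM with PRMT1 siRNA (-0.51 ± 0.11), and was not called without replicate 1 of either group. Irf9 and Ifi27 are named for these counts.

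Genes of MHC class I antigen presentation load and show peptides at the cell surface. All 14 tested members were called higher with both siRNAs in the length-adjusted fit (median 0.63), against 10.9% of all genes. Without each library in turn 13 or 14 were called higher, and 2 rose and none fell in the 16-library fit. The class I gene H2-Q4 had 204.7 and 178.2 CPM with both siRNAs, against 110.2 and 124.0 CPM with PRMT1 siRNA (0.71 ± 0.14, adjusted p = 0.0412). Psmb9, an immunoproteasome subunit, had 19.8 and 15.8 CPM with both siRNAs, against 8.38 and 9.32 CPM with PRMT1 siRNA (1.01 ± 0.20, adjusted p = 0.0427). It shares exons with Tap1 on the opposite strand. B2m, the invariant chain of class I, had 1656 and 1317 CPM with both siRNAs, against 864.7 and 941.8 CPM with PRMT1 siRNA, and was called in the length-adjusted fit (0.56 ± 0.09, adjusted p = 0.00105). H2-D1 (0.77 ± 0.09), Tapbp (0.64 ± 0.06), which encodes tapasin, and Tap2 (0.56 ± 0.06) were called there too. Class I genes are near copies of each other, and the counting could split reads between them. The levels of the 10 haematopoietic markers summed to 3.85 and 3.60 CPM with both siRNAs, against 3.98 and 3.63 CPM with PRMT1 siRNA, and Ptprc, Adgre1, Cd3e, Tyrobp, Laptm5 and Hbb-bs were at 0 in all 4 libraries.

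The next stretches come from the same promoter window of 5 members that were higher with both siRNAs. They are shown because they hold the core of the interferon-stimulated response element, GAAANNGAAA read on both strands, in capitals. They lie at chr11:58199497-58199555 for Igtp (plus strand), chr4:156200850-156200921 for Isg15 (minus), chr3:142620579-142620638 for Gbp2 (plus), chr19:34640760-34640838 for Ifit1 (plus) and chr2:122147523-122147582 for B2m (plus).
Igtp: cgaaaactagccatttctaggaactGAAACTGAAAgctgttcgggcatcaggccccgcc
Isg15: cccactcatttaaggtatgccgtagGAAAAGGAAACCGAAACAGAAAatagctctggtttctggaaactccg
Gbp2: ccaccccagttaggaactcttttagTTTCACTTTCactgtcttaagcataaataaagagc
Ifit1: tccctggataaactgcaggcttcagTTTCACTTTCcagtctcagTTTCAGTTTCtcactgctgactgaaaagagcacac
B2m: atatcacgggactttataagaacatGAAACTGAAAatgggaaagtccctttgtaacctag
In Gbp2 and Ifit1 the match reads on the opposite strand, and in Isg15 3 matches overlap. The core is in the window of 936 of 27025 genes (3.46%), of 11 of 24 matched interferon-stimulated genes and of 3 of 12 matched antigen presentation genes. Isg15 (0.41 ± 0.08) and Ifit1 (0.52 ± 0.10) were called in the length-adjusted fit, Ifit1 not without replicate 1 of PRMT1 siRNA. Isg15, Ifit1 and B2m were chosen for their promoters, after their values were seen.

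Epicardial and mesothelial genes were called higher more often than lower. Of 27 tested members, 2 rose in the 16-library fit. The length-adjusted fit called 12 higher and 4 lower (median 0.21), against 10.9% and 8.02% of all genes. Without each library in turn 8 to 11 were higher and 3 or 4 lower. Upk3b (chromosome 5, 136038496 to 136046487), a membrane protein of mesothelium, had 613.0 and 589.6 CPM with both siRNAs, against 398.2 and 422.8 CPM with PRMT1 siRNA (0.55 ± 0.11, adjusted p = 0.045). Krt7 (chromosome 15, 101411043 to 101430313), a keratin of simple epithelia, had 46.4 and 48.9 CPM with both siRNAs, against 25.9 and 26.0 CPM with PRMT1 siRNA (0.88 ± 0.12, adjusted p = 0.0135). In neither gene did the groups overlap, as was so for 62.4% of all tested genes.

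In the length-adjusted fit Podxl (0.65 ± 0.05), podocalyxin, Rspo1 (0.49 ± 0.07), a Wnt agonist, Aldh1a1 (0.27 ± 0.05), which makes retinoic acid, and the transcription factor gene Gata6 (0.25 ± 0.04) were called higher. So was Wt1, the transcription factor most used to mark epicardium, with 309.4 and 318.9 CPM with both siRNAs, against 253.8 and 272.9 CPM with PRMT1 siRNA (0.22 ± 0.05). The 4 called lower were Anxa8 (-0.46 ± 0.06), an annexin, Sema3d (-0.44 ± 0.06), a guidance factor, and the T-box factors Tbx20 (-0.25 ± 0.05) and Tbx18 (-0.22 ± 0.06). Tbx18 had 19.8 and 19.9 CPM with both siRNAs, against 26.0 and 24.1 CPM with PRMT1 siRNA. Wt1 and the 4 called lower were named after their values were seen. Wt1 was not called without replicate 1 of PRMT1 siRNA, and Tbx18 was called without replicate 2 of PRMT1 siRNA but not without the other 3 libraries. The markers Gata5, Tbx5 and Isl1 were at 0 in all 4 libraries.

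Epithelial junction and keratin genes included none called lower. Krt7 rose among 15 tested members, and the length-adjusted fit called 8 higher (median 0.26), against 10.9% of all genes. Among them were the tight junction genes Cldn15 (0.60 ± 0.11), Ocln (0.56 ± 0.14) and F11r (0.20 ± 0.04), plakoglobin, Jup (0.26 ± 0.05), and the keratin Krt14 (0.27 ± 0.06). The 8 became 5 without either PRMT1 siRNA library or replicate 1 of both siRNAs, and Ocln and F11r were among those lost. Cldn15 had 14.5 and 14.6 CPM with both siRNAs, against 7.99 and 10.3 CPM with PRMT1 siRNA. Cdh1, E-cadherin, was at most 0.0879 CPM and was not tested.

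Most matrix genes were not called, and those called were mainly higher. Of 30 tested collagen and fibroblast matrix genes, 3 rose and none fell in the 16-library fit. In that fit the change was above 0 in 14 of the 30, with a median of -0.04. The length-adjusted fit called 11 higher and 3 lower (median 0.07), against 10.9% and 8.02% of all genes. The change was above 0 in 24 of the 30, and without each library in turn 9 to 12 were called higher and 0 to 2 lower. Col8a2 (chromosome 4, 126286793 to 126314330), a network-forming collagen, had 26.1 and 28.2 CPM with both siRNAs, against 13.5 and 13.7 CPM with PRMT1 siRNA (0.99 ± 0.08, adjusted p = 0.000301). Postn, periostin, a matricellular protein, had 15.4 and 17.5 CPM with both siRNAs, against 8.27 and 9.48 CPM with PRMT1 siRNA (0.89 ± 0.10, adjusted p = 0.00444). Lum, given above, was the other of the 3 that rose. Thbs2, thrombospondin 2 (1.07 ± 0.17), Col18a1 (0.55 ± 0.09) and Col6a1 (0.36 ± 0.04) were called higher in the length-adjusted fit. The 3 called lower, Vcan, versican (-0.36 ± 0.09), Has2, hyaluronan synthase (-0.30 ± 0.10), and Col12a1 (-0.18 ± 0.05), were named for that count, and each lost its call without at least 2 of the 4 libraries.

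Smooth muscle contractile genes had no call among 20 tested in the 16-library fit. The length-adjusted fit called 8 lower and 4 higher (median -0.18), against 8.02% and 10.9% of all genes. Acta2, smooth muscle alpha-actin, had 255.2 and 246.5 CPM with both siRNAs, against 340.5 and 330.5 CPM with PRMT1 siRNA (-0.48 ± 0.11, adjusted p = 0.00871 in the length-adjusted fit, -0.42 ± 0.19 in the 16-library fit). Tagln, transgelin, named after its values were seen, had 86.5 and 82.1 CPM with both siRNAs, against 106.5 and 106.4 CPM with PRMT1 siRNA (length-adjusted -0.43 ± 0.10). Neither gene had overlapping groups, as was so for 62.4% of all tested genes. Caldesmon, Cald1 (-0.25 ± 0.06), filamin A, Flna (-0.23 ± 0.06), and Tpm4 (-0.22 ± 0.05), a tropomyosin, were also called lower in the length-adjusted fit, and Csrp1 (0.32 ± 0.04) was called higher. Actg2, a visceral actin, was called lower there as well (-1.74 ± 0.57) at 0.128 and 0.220 CPM with both siRNAs, against 0.663 and 0.371 CPM with PRMT1 siRNA, a level of few reads, and was not called without replicate 1 of PRMT1 siRNA or either library with both siRNAs. The 8 called lower became 2 and 5 without replicate 1 and 2 of PRMT1 siRNA, and 4 and 6 without replicate 1 and 2 of both siRNAs, and Acta2 was not called without replicate 1 of PRMT1 siRNA.

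Of 27 tested mesenchymal genes, none was called in the 16-library fit. The length-adjusted fit called 4 higher and 5 lower (median -0.01), against 10.9% and 8.02% of all genes. Fn1, fibronectin, had 2806 and 3961 CPM with both siRNAs, against 5404 and 5034 CPM with PRMT1 siRNA. Its groups did not overlap but the 2 libraries with both siRNAs differed from each other, and its change was -0.62 ± 0.24 (adjusted p = 0.251) in the 16-library fit and -0.36 ± 0.09 (adjusted p = 0.0117) in the length-adjusted fit. Pdgfrb, a receptor of platelet-derived growth factor, was called higher there (0.34 ± 0.06), and Cd44 (-0.19 ± 0.04), a hyaluronan receptor, and Loxl2 (-0.16 ± 0.05), a lysyl oxidase, lower. Fn1 was not called without replicate 1 of either group, and the 5 called lower became 1 in each of those fits.

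Genes of G2 and mitosis were lower by small amounts. None of 32 was called in the 16-library fit. In the length-adjusted fit 9 were called lower and none higher (median -0.12), against 8.02% and 10.9% of all genes. Hmmr, a spindle-associated hyaluronan receptor, had 81.9 and 91.7 CPM with both siRNAs, against 111.3 and 115.4 CPM with PRMT1 siRNA (length-adjusted -0.32 ± 0.05). Mybl2 (-0.27 ± 0.08), a cell cycle transcription factor, Prc1 (-0.25 ± 0.04) and Kif23 (-0.22 ± 0.06) of the midzone and Cenpe (-0.20 ± 0.04), a kinetochore motor, were among the 9. Mki67, the Ki-67 proliferation marker, named after its values were seen, gave -0.52 ± 0.22 in the 16-library fit and -0.16 ± 0.05 in the length-adjusted fit. The 9 became 2 and 5 without replicate 1 and 2 of PRMT1 siRNA and 5 and 6 without replicate 1 and 2 of both siRNAs, and of the genes named here Hmmr and Prc1 kept their call in all 4.

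Of 35 S phase genes, none was called in the 16-library fit. The length-adjusted fit called 4 lower and 2 higher (median -0.01), against 8.02% and 10.9% of all genes. Those lower were Pole (-0.52 ± 0.13), a DNA polymerase, Rrm2 (-0.25 ± 0.06), a ribonucleotide reductase subunit, Cdc6 (-0.25 ± 0.08), which loads the replicative helicase, and Uhrf1 (-0.23 ± 0.05), which keeps DNA methylation. Pole had 55.4 and 73.8 CPM with both siRNAs, against 89.2 and 82.7 CPM with PRMT1 siRNA. Without replicate 1 and 2 of PRMT1 siRNA 0 and 3 were called lower, and without replicate 1 and 2 of both siRNAs 1 and 3, so this count rests on single libraries.

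Single members stood out on other lists. Bmf, a BH3-only cell death gene outside the p53 lists, rose (0.57 ± 0.10, adjusted p = 0.0291), with 13.8 and 16.3 CPM with both siRNAs, against 10.1 and 10.2 CPM with PRMT1 siRNA. Egr1, an immediate early transcription factor, rose (0.57 ± 0.11, adjusted p = 0.0427), as did the insulin-like growth factor binding protein gene Igfbp3 (0.50 ± 0.10, adjusted p = 0.0412), the hypoxia-induced Ndrg1 (0.34 ± 0.07, adjusted p = 0.0459) and the metalloprotease gene Mmp28 (0.69 ± 0.14, adjusted p = 0.0466). Txnrd1, thioredoxin reductase and a target of NRF2, fell (-0.38 ± 0.07, adjusted p = 0.0429). Apart from these and the genes already given, no tested member of the lists of cell cycle inhibitors, apoptosis, secretory, hypoxia, NRF2, protease and immediate early genes was called in the 16-library fit, and none at all of the TGF-beta, BMP, cholesterol and amino acid stress lists. In the length-adjusted fit 7 of 27 TGF-beta pathway genes were called higher and 4 lower (median 0.03), 1 of 15 BMP genes higher and 2 lower, 2 of 24 cholesterol synthesis genes higher and 3 lower, and 2 of 28 amino acid stress genes higher and 7 lower, against 10.9% and 8.02% of all genes. Without replicate 1 and 2 of PRMT1 siRNA and replicate 1 and 2 of both siRNAs the TGF-beta pathway counts were 3, 2, 3 and 5 higher and 1, 3, 1 and 3 lower, and 2, 5, 3 and 5 amino acid stress genes were lower. The BMP genes had 0 higher and 2 lower each time, and the cholesterol synthesis genes 0 to 2 higher and 1 or 2 lower.

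Markers of other cell types were near the floor. Of 10 endothelial markers 5 were at or near 0, and their sum was 9.42 and 9.45 CPM with both siRNAs, against 8.11 and 6.596 CPM with PRMT1 siRNA; Kdr, a VEGF receptor, at 7.43 and 7.47 CPM with both siRNAs, against 6.55 and 4.82 CPM with PRMT1 siRNA, made up most of it and was called higher in the length-adjusted fit (0.58 ± 0.13). Of 10 cardiomyocyte markers 7 were at or near 0, and Tnnt2, cardiac troponin T, had 4.65 and 3.56 CPM with both siRNAs, against 1.95 and 2.47 CPM with PRMT1 siRNA (length-adjusted 0.77 ± 0.18). Neither Kdr nor Tnnt2 kept its call without every library. The part of these genes in the results was not tested.

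p53 siRNA over control siRNA gave mostly the same signs. Of the 88 genes that rose, 82 (93.2%) had the same sign for p53 siRNA over control siRNA, against 52.4% of genes not called, and 37 were called higher there in the 16-library fit, where 1.17% of tested genes were. Of the 46 that fell, 45 (97.8%) had the same sign and 28 were called lower, as were 1.29% of tested genes. Calls of that comparison took in 2.47% of genes either way. For both siRNAs over PRMT1 siRNA with TGF-beta the shares were 78 of 88 (88.6%) and 39 of 46 (84.8%), against 40.4% of genes not called, with 2 called higher (0.219% of tested genes) and 12 lower (0.232%), out of 0.452% either way. The median change of the 88 was 0.68, against 0.42 for p53 siRNA over control siRNA and 0.22 with TGF-beta. That of the 46 was -0.56, against -0.51 and -0.16. In these selected genes the first value of each set is the one that chose them. In the length-adjusted fit the shares were closer to background: with TGF-beta 53.3% of the genes called higher and 49.6% of those called lower had the same sign, against 48.8% of genes not called, and for p53 siRNA over control siRNA 73.3% and 68.5%, against 54.9%.

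Arrest and cell death target genes of p53 were mostly lower in the other 2 settings too, and repair and metabolism genes moved both ways. In the length-adjusted fit 11 of 20 arrest and feedback genes were called lower for p53 siRNA over control siRNA and 1 higher, and 11 lower and none higher with TGF-beta, against 9.04% and 6.93% of all genes called lower. Of 17 cell death genes 9 were called lower on control siRNA, and 8 lower and 1 higher with TGF-beta. Of 20 repair and metabolism genes 8 were called lower and 2 higher on control siRNA (median -0.015), and 3 lower and 2 higher with TGF-beta (median -0.14). Cdkn1a changed by -1.60 ± 0.08 in that fit for p53 siRNA over control siRNA, with 9.03 and 9.20 CPM with p53 siRNA, against 29.0 and 27.1 CPM with control siRNA. With TGF-beta it changed by -1.06 ± 0.05, with 47.5 and 47.7 CPM with both siRNAs, against 101.8 and 107.5 CPM with PRMT1 siRNA. The medians of the arrest list there were -0.43 and -0.30, and those of the cell death list -0.28 and -0.25. Pmaip1 was among the 8 of 17 cell death genes not called on control siRNA, with 7.17 and 5.92 CPM with p53 siRNA, against 6.68 and 7.498 CPM with control siRNA (length-adjusted -0.13 ± 0.12, adjusted p = 0.536). The difference between its changes on PRMT1 siRNA and on control siRNA was -0.75 ± 0.15 (adjusted p = 0.0114) in the length-adjusted fit, which called 1145 such differences (7.11% of tested genes), 4.47% higher and 2.65% lower. The 16-library fit called none, with 1192 at an unadjusted p under 0.05, and DESeq2 called 52.

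Interferon-stimulated genes had length-adjusted medians of 0.16 for p53 siRNA over control siRNA, with 9 called higher (7.34% of all genes were), and 0.11 for both siRNAs over PRMT1 siRNA with TGF-beta, with 6 called higher (4.63% of all genes). The difference of the change without TGF-beta minus that with TGF-beta was called higher for 19 of 36 in the length-adjusted fit, against 8.67% of all genes. The difference of the change on PRMT1 siRNA minus that on control siRNA was called higher for 6 and lower for 1 there. Over all genes 4.47% were called higher and 2.65% lower for that difference. The 16-library fit called 0 of 36 for either difference. Antigen presentation genes had medians of 0.33 on control siRNA, with 11 of 14 called higher, and 0.15 with TGF-beta, with 2. Of the G2 and mitosis genes, 31 of 32 were called lower for p53 siRNA over control siRNA (median -0.38), against 9.04% of all genes. With TGF-beta 6 were called higher (median 0.08), against 4.63% of all genes. The count on PRMT1 siRNA without TGF-beta was 9 lower, against 8.02% of all genes. The difference between the change on PRMT1 siRNA and on control siRNA was called higher for 15 G2 and mitosis genes in the length-adjusted fit. There 4.47% of all genes were called higher, and the 16-library fit called none of the G2 and mitosis genes. Smooth muscle contractile genes had medians of -0.22 and -0.21, with 10 called lower in each of the other settings. Of all genes 9.04% were called lower on control siRNA and 6.93% with TGF-beta.

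**Figure D5:**
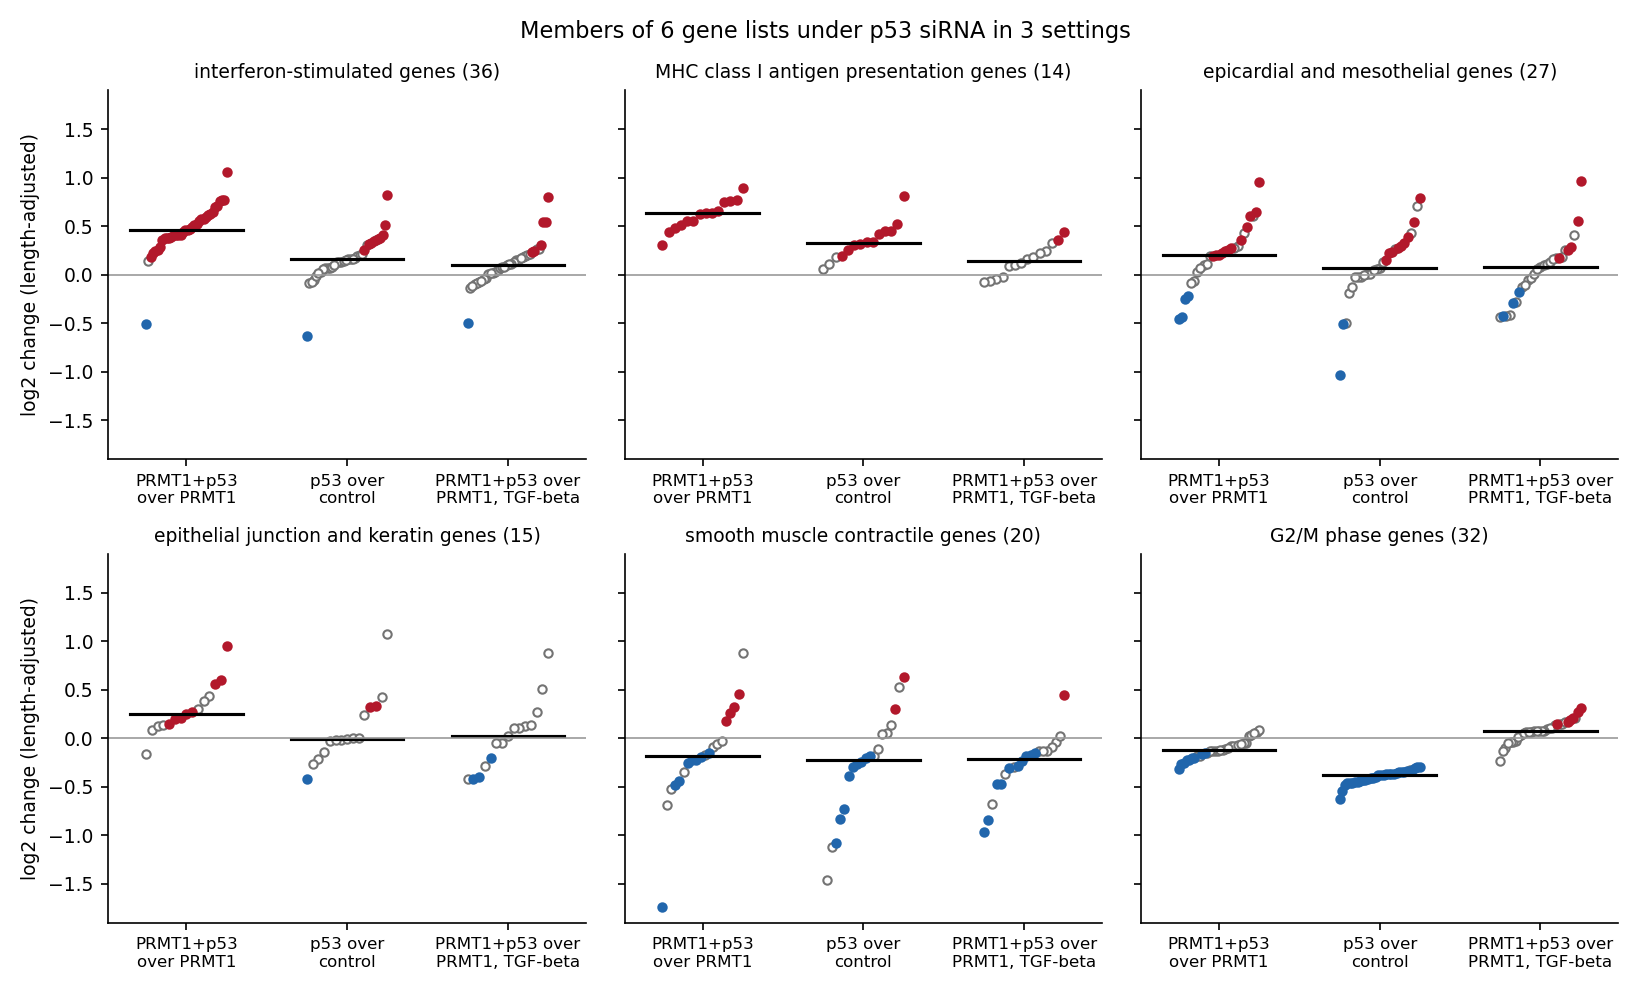
Length-adjusted log2 change of each tested member of 6 lists for both siRNAs over PRMT1 siRNA, p53 siRNA over control siRNA, and both siRNAs over PRMT1 siRNA with TGF-beta; filled red points were called higher and filled blue points lower, open points were not called, and black lines are medians. The interferon-stimulated genes lie highest in the first setting (median 0.46, against 0.16 and 0.11), and the G2/M phase genes lowest in the second (median -0.38).

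There were 6 genes that differed in their response between cells without and with TGF-beta in the 16-library fit (0.0387% of tested genes, 0.0194% in each direction), although no gene was called once any 1 of the 8 libraries was left out. Cxcl1, a neutrophil chemokine, had 57.6 and 59.2 CPM with both siRNAs, against 73.4 and 83.1 CPM with PRMT1 siRNA, without TGF-beta. With TGF-beta it had 27.8 and 28.3 CPM with both siRNAs, against 17.4 and 19.2 CPM with PRMT1 siRNA. Cxcl1 stood lower with both siRNAs without TGF-beta, where it was not called (-0.42 ± 0.10, adjusted p = 0.0712), and rose with TGF-beta (0.61 ± 0.10, adjusted p = 0.032), and the difference of the log2 changes was -1.03 ± 0.14 (adjusted p = 0.0357).

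Fgf7, keratinocyte growth factor, which fell without TGF-beta (-0.56 ± 0.10, adjusted p = 0.0335), had 26.4 and 25.4 CPM with both siRNAs, against 39.6 and 37.0 CPM with PRMT1 siRNA. With TGF-beta it had 27.4 and 27.4 CPM with both siRNAs, against 18.2 and 20.9 CPM with PRMT1 siRNA (difference -1.05 ± 0.14). Adamts5 had 185.1 and 198 CPM with both siRNAs and TGF-beta, against 118.9 and 133.4 CPM with PRMT1 siRNA and TGF-beta, not called there (0.60 ± 0.12, adjusted p = 0.0715) and opposite in sign to its fall without TGF-beta (difference -1.30 ± 0.18). In none of the 3 genes did a pair of groups overlap, but they were named for a called difference between the settings. Without TGF-beta 62.4% of all tested genes had groups that did not overlap, and the share with TGF-beta was not counted.

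Col8a2 and Adamts16, a protease of the same family as Adamts5, rose without TGF-beta and were not called with it. Adamts16 had 5.61 and 5.41 CPM with both siRNAs, against 2.69 and 2.43 CPM with PRMT1 siRNA, and in cells with TGF-beta 32.5 and 33.8 CPM with both siRNAs, against 34.9 and 34.5 CPM with PRMT1 siRNA (difference 1.17 ± 0.16). Col8a2 with TGF-beta had 167.6 and 165.9 CPM with both siRNAs, against 152 and 167.1 CPM with PRMT1 siRNA (difference 0.93 ± 0.10). F3, tissue factor, the start of blood clotting, had 30.1 and 30.0 CPM with both siRNAs, against 28.2 and 29.3 CPM with PRMT1 siRNA, without TGF-beta. With TGF-beta it had 61.1 and 57.8 CPM with both siRNAs, against 108.6 and 95.3 CPM with PRMT1 siRNA (difference 0.84 ± 0.11). These 6 genes had the same sign of difference in the length-adjusted fit, where all 6 were called among 2365 genes (14.7%, with 8.67% higher and 6.02% lower).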

How the data were processed

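Poly(A)-enriched RNA of MEC1 cells was sequenced in 16 libraries, 8 groups of 2, per the labels. The deposited values are expected counts for each gene, unscaled; the submitters' processing notes name TopHat2, Partek and genome build mm10 as what the authors used. Versions, annotation, strand setting and counting options are not given in the sources used here. The table lists 46348 genes, 29120 of them above 0 somewhere, and 60% of its nonzero entries are whole within 0.01; all were rounded for the tests.

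Groups came from sample titles and columns were matched by name. The 16-library fit used edgeR 4.0.16 (R 4.3.3): TMM factors, filterByExpr, 1 mean per group, quasi-likelihood F tests, and Benjamini-Hochberg adjustment over all 15494 genes tested, with calls at an adjusted p under 0.05. The length-adjusted fit left out the second library of p53 siRNA with TGF-beta and took each library's lowess trend (span 0.3) with GENCODE transcript length as an offset; 96.5% of tested genes had a length. That fit was made after an earlier look at these data. The common biological coefficient of variation was 0.114 in the first fit and 0.0501 in the second. The alternatives were RLE factors, no low-count filter, DESeq2 1.42.0, fewer libraries, length offsets, the replicate number as a block and leaving out each library. Scripts were tested on simulated data.

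The rule for named genes took Trp53, Prmt1, Mdm2, Mdm4 and Cdkn1a, the 12 largest rises and falls called in both fits at a mean of 5 CPM or more without overlap of the groups, members of the 4 p53 lists, up to 6 members of each other list by adjusted p, and up to 4 genes per direction of each difference between settings. Predicted and near-copy genes were left out. Members and the 29 gene lists were chosen with earlier results of these data known. Motifs were sought in the 250 bases before RefSeq starts (GRCm38.p6) of 27025 genes; coordinates of genes are GENCODE's on GRCm38. Depth sets the precision: 1 count is worth more CPM in the smaller libraries, and counting error is part of the spread between libraries.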

Additional observations from a re-analysis of the deposited data

Results flagged for a closer look

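Among the named genes, 6 changed differently without and with TGF-beta by edgeR's test of the difference itself, given as the log2 change of both siRNAs over PRMT1 siRNA without TGF-beta minus the same with TGF-beta. The difference was -1.3 for Adamts5, -1.05 for Fgf7 and -1.03 for Cxcl1, which stood lower with both siRNAs without TGF-beta and higher with it. It was 1.17 for Adamts16 and 0.93 for Col8a2, which rose without TGF-beta and were not called with it. It was 0.84 for F3, which fell with TGF-beta and was not called without it. Adjusted p-values lay between 0.0289 and 0.0357, and no gene was called once any 1 of the 8 libraries was left out. Groups of 2 libraries are too small to test for a single library that stands apart.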

How the results depend on the processing

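All counts here are genes at an adjusted p under 0.05. For both siRNAs over PRMT1 siRNA without TGF-beta the 16-library fit called 88 higher and 46 lower, and RLE factors gave 102 and 48. Without the low-count filter there were 510 and 646, with DESeq2 373 and 181, with 15 libraries 1899 and 1583, with the 8 libraries without TGF-beta 1276 and 1076, and with the groups of the comparison alone 1112 and 1323. Length offsets gave 415 and 185 with 16 libraries and 1748 and 1291 with 15. Leaving out 1 library gave 2 to 7 higher and 2 lower; with length offsets, an alternative added after the data were seen, it gave 753 to 1606 higher and 401 to 1188 lower (753 and 401, 1037 and 710, 845 and 470, 1606 and 1188 for PRMT1 siRNA replicate 1 and 2 and both siRNAs replicate 1 and 2).

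In the same order of settings (no filter, DESeq2, 15 libraries, 8 libraries where they apply, groups alone, length offsets with 16 and with 15 libraries), p53 siRNA over control siRNA, with 382 calls at first, gave 609, 655, 1877, 1231, 726, 1054 and 2638. Both siRNAs over PRMT1 siRNA with TGF-beta, with 70 at first, gave 586, 226, 1962, 3020, 246 and 1862. The difference between PRMT1 siRNA and control siRNA, 0 at first with 1192 at an unadjusted p under 0.05, gave 461, 52, 1487, 108, 108, 37 and 1145. That without and with TGF-beta, 6 at first, gave 1448, 91, 4103, 4293, 42 and 2365. Leaving out 1 library gave 55 to 127, 1 to 13, 0 and 0 calls for these 4.

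With the replicate block the calls were 41 higher and 19 lower for the main comparison, 276 for p53 siRNA over control siRNA, 36 with TGF-beta, 1 for the difference between PRMT1 and control siRNA and 0 for that without and with TGF-beta. With the block and length offsets they were 1813 and 1322, 2729, 2107, 1353 and 2567. Same-numbered libraries of the 2 compared groups correlated at 0.056 in their deviations, and the numbers are not shown to pair the samples.

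The correlation of change with length was -0.284 and -0.256 for the 2 pairs that used replicate 2 of both siRNAs, against -0.394 at first. Signs turned for Prep (0.083 and 0.081 with length offsets in 16 and 15 libraries, 0.079 with the block, and 0.077, 0.089 and 0.161 without PRMT1 siRNA replicate 1 or 2 or both siRNAs replicate 2), for Trp53bp1 (0.25, 0.247 and 0.247, without a library 0.227, 0.271, 0.262 and 0.233) and for F3 (-0.008, -0.01 and -0.012, without a library -0.024 and -0.025). In the 16-library fit without 1 library each, values ran between -0.17 and 0.047 for Prmt1, -0.193 and 0.033 for Bax, -0.203 and 0.026 for Rps27l and -0.236 and 0.014 for Trp53bp1, with the positive values without replicate 2 of both siRNAs, for Trp53bp1 without replicate 1. Mdm4 gave 0.002 and 0.031 with length offsets without PRMT1 siRNA replicate 2 or both siRNAs replicate 1. The cause was not tested for any of these.

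Of 136 genes named in the text and tested, 53 were called in the 16-library fit, and 51 of these were called the same way in the length-adjusted fit and without each of its 4 libraries, the exceptions being Prep and Adamts5. Of 132 called in the length-adjusted fit, 89 were called the same way without every one of the 4 libraries in turn. The losses numbered 37 and 20 without replicate 1 and 2 of PRMT1 siRNA and 27 and 12 without replicate 1 and 2 of both siRNAs. All these fits share libraries with the fits that made the calls, so their agreement is not an independent check. With 2 libraries per group, genes at few counts, such as Actg2, cannot be told apart from no change in most fits.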
